A study of Mus musculus with 12 samples.

Results

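Matricellular proteins are secreted by connective tissue cells and tune how cells attach to and read the matrix, rather than bearing load as collagens do. The gene group described here holds 10 such proteins and companions from fibroblasts: Sparc, Postn, Thbs1, Thbs2, Fn1, Mfap5, Sfrp4, C1qtnf3, Serpinf1 and Thy1. They were chosen by symbol because several of them were higher in dysferlin-null muscle, with related matrix glycoproteins added, so their genotype differences are given below as a description and support nothing by themselves. On the array, 11 probe sets of 9 of these genes carried a single gene symbol, out of 12422 probe sets without the controls. All 11 were among the 10331 probe sets bright enough to be tested, and Thbs1 was found only on a probe set that also lists Pald1, so it has no value here.

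The study measured total RNA of whole mouse muscle on 12 single-colour expression arrays, 3 in each of 4 groups. The Dysf_null groups are QF and TA muscle of C57BL/10-SJL.Dysf mice labelled Dysf -/-, and the Control groups are the same muscles of C57BL/10 mice labelled Dysf +/+, all at 3 weeks of age. Dysferlin is a membrane repair protein of muscle fibres, its loss causes limb-girdle dystrophy in people, and the dysferlin allele of SJL mice is a germline one, present in every cell of the animal. No probe set carried the symbol Dysf, so the genotype labels were not checked on the arrays. The labels do not say whether replicates are separate mice, so the errors and p-values given here measure array-to-array spread, which may be technical.

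Fibroblasts, including the fibro-adipogenic progenitors that lie between muscle fibres, make most of the matrix of muscle. SPARC, periostin and the thrombospondins mark matrix that is being remodelled in growth or repair, and fibronectin forms the early scaffold onto which other fibres assemble. Sfrp4, C1qtnf3 and Serpinf1 leave the cell as soluble factors, and Thy1 sits on the fibroblast surface. In whole muscle, fewer cells of a type and less RNA per cell cannot be told apart.

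Values are log2 intensities after quantile normalization, with a floor at 4.53, and the arrays of a group are listed in the order of their replicate numbers. Marker genes of muscle fibres were bright on every array, with 9 of the 10 listed genes above the floor on all 12. The replicate numbered 2 of each QF group was unlike the other arrays. Its median correlation with them was 0.876 in Dysf_null and 0.866 in Control, against 0.926 to 0.959 for the other 10 arrays. Same-numbered arrays of the same muscle also deviated together, so counts from a fit with the replicate number as a block within each muscle stand beside the genotype counts they change. Differences between groups are taken within a probe set. Levels of different probe sets are set side by side only to find the brightest ones and to sum markers.

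RefSeq promoter windows (GRCm38.p6) were found for 5 of the genes, Sparc, Postn, C1qtnf3, Serpinf1 and Thbs2. The 250 bases upstream of the start are shown for the 4 of these genes that were called higher in Dysf_null QF, 5′ to 3′ on the gene's strand. They lie at chr11:55420081-55420330 on the minus strand (Sparc), chr3:54360857-54361106 on the plus strand (Postn, the downstream of its annotated starts), chr15:10952082-10952331 on the plus strand (C1qtnf3) and chr11:75422624-75422873 on the minus strand (Serpinf1). Capitals mark matches, searched on either strand, to motifs that are named as follows. The TATA box was searched as TATAAA. The SMAD box, bound by the TGF-beta effectors, was searched as CAGAC. The GGA box was searched as GGAGG.
Sparc: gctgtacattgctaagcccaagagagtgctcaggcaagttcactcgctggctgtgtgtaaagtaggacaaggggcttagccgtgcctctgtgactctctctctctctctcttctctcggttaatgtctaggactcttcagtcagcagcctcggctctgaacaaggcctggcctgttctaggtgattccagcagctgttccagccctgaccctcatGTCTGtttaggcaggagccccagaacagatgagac
Postn: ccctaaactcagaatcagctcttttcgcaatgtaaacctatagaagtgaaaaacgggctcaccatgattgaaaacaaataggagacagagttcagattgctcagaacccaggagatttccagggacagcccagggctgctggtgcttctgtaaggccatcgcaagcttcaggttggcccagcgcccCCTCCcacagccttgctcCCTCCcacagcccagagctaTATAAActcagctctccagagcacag
C1qtnf3: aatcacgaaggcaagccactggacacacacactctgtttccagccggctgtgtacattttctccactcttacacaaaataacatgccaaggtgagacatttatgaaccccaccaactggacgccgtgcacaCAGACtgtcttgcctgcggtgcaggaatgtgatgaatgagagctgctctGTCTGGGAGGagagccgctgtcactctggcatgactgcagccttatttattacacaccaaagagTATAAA
Serpinf1: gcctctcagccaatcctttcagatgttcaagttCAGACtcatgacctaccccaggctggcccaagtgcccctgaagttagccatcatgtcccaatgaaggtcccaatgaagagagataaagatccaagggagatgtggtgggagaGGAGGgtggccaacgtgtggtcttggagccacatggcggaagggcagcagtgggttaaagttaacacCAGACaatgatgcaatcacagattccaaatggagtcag
Over all 6 windows of the 5 genes, counting both starts of Postn, the SMAD box was present in 5, the GGA box in 4 and the TATA box in 3. Of all 32851 promoter windows in the table, 42.2% hold the SMAD box, 66.9% the GGA box and 12.4% the TATA box. Positions are those of a match's first base, counted back from the start. The Postn window shown has a TATA box at -26 and GGA boxes at -64 and -46. The C1qtnf3 window has a TATA box at -6, a GGA box at -65 and SMAD boxes at -119 and -70, of which the nearer abuts the GGA box. A SMAD box lies at -35 in the Sparc window and at -217 and -38 in the Serpinf1 window, which also has a GGA box at -105. None of the 6 windows held a GC box (GGGCGG), which 32.7% of all windows hold. None held the AP-1 site (TGANTCA), which 6.75% of all hold. None held a CArG box, which 1.47% of all hold. These are letter matches only, and no binding was measured.

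By its brightest probe set, each of the 9 genes had a higher mean in Dysf_null than in Control in both muscles. In QF the fold ran between 1.49 for Fn1 and 5.03 for Sfrp4, and in TA between 1.10 for Thy1 and 2.12 for C1qtnf3. The matricellular glycoproteins come first below, then the scaffold proteins, the soluble factors and the surface protein.

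Sparc encodes a collagen-binding glycoprotein that controls how collagen fibrils are laid down. Its probe set gave 12.01, 12.29 and 11.84 in Dysf_null QF, against 11.19, 11.14 and 10.94 in Control QF. In TA it gave 11.88, 11.91 and 11.64 in Dysf_null, against 11.39, 11.35 and 11.26 in Control. Every Dysf_null array lay above every Control array, also across muscles, and the lowest 3 of the 12 values were those of Control QF. The difference, Dysf_null minus Control, was 0.96 ± 0.13 (SE) in QF, a 1.94-fold higher level, and 0.48 ± 0.13 in TA, 1.39-fold.

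Postn encodes periostin, a fasciclin-domain protein of growing and injured connective tissue. The probe set stood at 10.60, 10.81 and 11.16 in Dysf_null QF, against 9.00, 9.33 and 9.72 in Control QF. The TA arrays held 10.80, 10.89 and 10.77 in Dysf_null, against 10.44, 9.86 and 10.40 in Control. The groups did not overlap in either muscle, and the Dysf_null means of both muscles were close, at 10.85 ± 0.28 in QF and 10.82 ± 0.06 in TA (SD, n = 3 each), while the Control means were 9.35 ± 0.36 in QF and 10.23 ± 0.33 in TA. The difference was 1.50 ± 0.21 in QF (2.83-fold) and 0.59 ± 0.21 in TA (1.51-fold).

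Thbs2 encodes thrombospondin 2, an antiangiogenic matricellular protein made by fibroblasts. The probe set read 7.34, 7.54 and 8.12 in Dysf_null QF, against 7.17, 7.06 and 6.93 in Control QF. In TA the readings were 7.63, 7.51 and 7.26 in Dysf_null, against 7.01, 7.07 and 6.40 in Control. The arrays of the genotypes did not overlap in either muscle, yet the gap between the nearest arrays was small beside the spread, and the probe set was not called in either. The differences were 0.61 ± 0.28 in QF and 0.64 ± 0.28 in TA.

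Fn1 encodes fibronectin, the integrin-binding scaffold glycoprotein. The probe set gave 9.42, 9.31 and 8.68 in Dysf_null QF, against 8.91, 8.31 and 8.45 in Control QF, so the QF groups overlapped through the third Dysf_null and the first Control array. In TA it gave 9.17, 9.04 and 9.14 in Dysf_null, against 8.54, 8.82 and 8.86 in Control, with no overlap. The difference was 0.58 ± 0.21 in QF, the smallest there among the brightest probe sets of the 9 genes, and 0.38 ± 0.21 in TA.

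Mfap5 encodes a small glycoprotein that binds fibrillin microfibrils, and it was read by a bright and a dim probe set. The bright one gave 9.50, 9.89 and 10.25 in Dysf_null QF, against 8.29, 8.24 and 9.33 in Control QF. In TA it gave 9.87, 9.99 and 9.90 in Dysf_null, against 9.97, 9.53 and 9.72 in Control. The genotypes were apart in QF, by 1.26 ± 0.27 (2.39-fold), and overlapped in TA, where the difference was 0.18 ± 0.27. The dim one read 6.75, 4.95 and 6.40 in Dysf_null QF, against 6.50, 4.53 and 6.14 in Control QF, the value of 4.53 being the floor. In TA it read 6.34, 6.38 and 6.29 in Dysf_null, against 5.86, 5.81 and 6.22 in Control. Its QF groups overlapped, its TA groups did not, and its differences were 0.31 ± 0.53 in QF and 0.37 ± 0.53 in TA. The deviations of the Mfap5 probe sets from their group means correlated at r = 0.16 over the 12 arrays, and the gene's QF difference was larger than its spread on the bright probe set alone.

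Sfrp4 encodes a secreted frizzled-related protein that binds Wnt ligands outside the cell. Its probe set held 7.37, 8.36 and 7.94 in Dysf_null QF, against 4.54, 5.85 and 6.29 in Control QF. In TA it held 8.27, 8.29 and 8.13 in Dysf_null, against 7.30, 7.32 and 7.87 in Control. The genotypes did not overlap in either muscle, and the first Control QF array, at 4.54, was just above the floor. The QF difference, 2.33 ± 0.40 (5.03-fold), ranked 2 of all 10331 probe sets by size in the higher direction, and the TA difference was 0.73 ± 0.40 (1.66-fold). The QF difference was 1.94 with the floor at the 40th percentile and 1.82 without the first Control QF array.

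C1qtnf3 encodes a C1q and TNF related adipokine, also known as CTRP3. The probe set gave 7.19, 7.27 and 7.92 in Dysf_null QF, against 5.23, 5.65 and 6.04 in Control QF. The TA arrays gave 7.06, 7.29 and 6.89 in Dysf_null, against 6.21, 5.79 and 5.97 in Control. Every Dysf_null array lay above every Control array, also across muscles. The differences were 1.82 ± 0.32 in QF (3.53-fold) and 1.09 ± 0.32 in TA (2.12-fold).

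Serpinf1 encodes pigment epithelium-derived factor, a serpin with no protease target that is secreted into matrix and acts against blood vessel growth. The brighter of its probe sets read 9.71, 9.94 and 9.87 in Dysf_null QF, against 8.51, 8.90 and 8.95 in Control QF. In TA it read 9.75, 10.25 and 10.20 in Dysf_null, against 8.90, 9.25 and 8.90 in Control. The difference was the same size in both muscles, 1.05 ± 0.18 in QF (2.08-fold) and 1.05 ± 0.18 in TA (2.07-fold), and no Control array reached a Dysf_null one. The dimmer probe set gave 7.33, 4.99 and 5.38 in Dysf_null QF, against 6.49, 5.52 and 6.21 in Control QF, and the groups overlapped. In TA it gave 6.86, 7.13 and 7.01 in Dysf_null, against 6.33, 5.19 and 6.70 in Control, with no overlap. Its differences were -0.17 ± 0.57 in QF and 0.93 ± 0.57 in TA, and its deviations from the group means correlated with those of the brighter one at r = -0.50 over the 12 arrays. The QF difference of Serpinf1 therefore rests on the brighter probe set alone. On both QF arrays numbered 2, the dim probe sets of Mfap5 and Serpinf1 were the lowest of their group.

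Thy1 encodes a glycolipid-anchored surface protein carried by fibroblasts, T cells and neurons. The probe set gave 8.09, 8.24 and 8.05 in Dysf_null QF, against 7.26, 7.08 and 6.46 in Control QF. In TA it gave 7.70, 7.97 and 7.89 in Dysf_null, against 7.60, 7.71 and 7.83 in Control, and the groups overlapped. The difference was 1.19 ± 0.23 in QF (2.28-fold) and 0.14 ± 0.23 in TA (1.10-fold). Among markers of T cells, which also carry Thy1 in mice, 3 of 11 on the array were above the floor on all 12 arrays and Cd3d was at the floor on all of them. Their summed intensity was 406 to 774 in Dysf_null QF, against 452 to 798 in Control QF, and 393 to 470 in Dysf_null TA, against 395 to 431 in Control TA. The sums of the genotypes overlapped in both muscles.

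**Figure D1:**
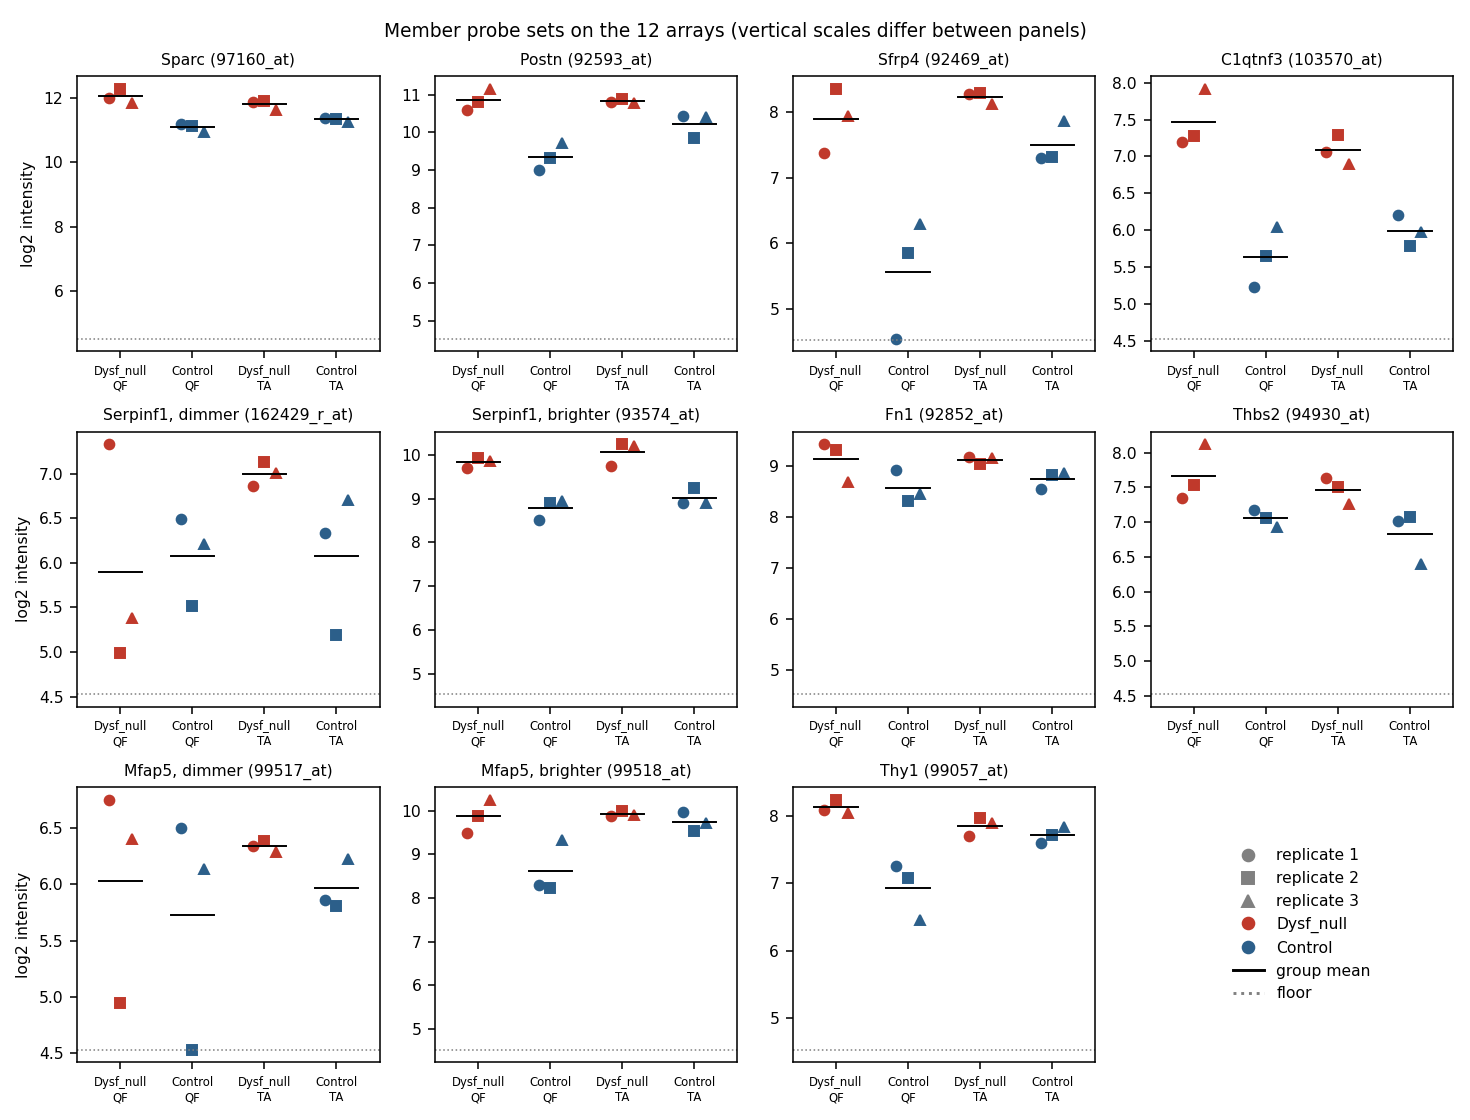
Log2 intensity (y axis) of each of the 11 probe sets on each of the 12 arrays, by group, with a bar at the group mean (n = 3). Sparc, Postn, Thbs2, Sfrp4, C1qtnf3 and Serpinf1 (brighter probe set) show no overlap between the genotypes in either muscle, while the dimmer probe sets of Mfap5 and Serpinf1 scatter widely in QF.

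A probe set was called at a Benjamini-Hochberg adjusted p under 0.05 from limma over all 10331 tested. In QF, 6 of the 11 were called higher in Dysf_null (Sparc, Postn, Sfrp4, C1qtnf3, the brighter Serpinf1 probe set and Thy1), against 0.300% of all probe sets. In TA, the brighter Serpinf1 probe set was the 1 called higher, against 0.252% of all. Averaged over muscles, 5 were called higher (Sparc, Postn, Sfrp4, C1qtnf3 and Serpinf1), against 0.784% of all. With the replicate number as a block within each muscle, 7 were called higher in QF, with the brighter Mfap5 probe set added, against 1.68% of all. The block gave 2 in TA, with Sparc added, against 0.920%, and 8 averaged over muscles, with Fn1, the brighter Mfap5 probe set and Thy1 added, against 2.71%. With the number as 1 block over all arrays, the counts were 7 in QF, 1 in TA and 5 averaged over muscles. Of all 10331 probe sets, that block called 43 higher in QF, 31 in TA and 110 averaged over muscles. These counts used the contrasts that chose the genes, and nothing is read from them. Without both QF arrays numbered 2, limma called 0 of the 11 in QF, and only 2 of all 10331 probe sets. Of the 11, 7 had an unadjusted p under 0.05, against 7.28% of all probe sets. The differences were 0.86 for Sparc, 1.51 for Postn, 2.24 for Sfrp4, 1.92 for C1qtnf3, 1.06 for the brighter Serpinf1 probe set and 1.21 for Thy1. With the QF arrays fitted alone, 0 of the 11 were likewise called, and 0 of all 10331 probe sets. Of the 11, 7 had an unadjusted p under 0.05, against 3.93% of all. The QF count of the 11 was 3 without Dysf_null QF array 1 and 2 without array 2 or array 3 of that group. It was 3 without Dysf_null TA array 2 or 3 or Control TA array 2. Over all 10331 probe sets 31 were called higher in QF, and omitting Dysf_null QF array 1, 2 or 3 left 18, 20 or 10. Omitting Dysf_null TA array 2 or 3 left 19 each, and omitting Control TA array 2 left 18. Sparc and Postn were called in QF in all 12 single omissions, the brighter Serpinf1 probe set in 8 and Sfrp4 in 7, whereas C1qtnf3 was called only without Control QF array 3 and Thy1 only without Control QF array 1. The TA call of Serpinf1 was lost without Dysf_null TA array 2 or 3 or Control TA array 1 or 3. Averaged over muscles, Sparc, Postn, C1qtnf3 and Serpinf1 were called in all 12 omissions and Sfrp4 in 6, being lost without Dysf_null QF array 3, any Dysf_null TA array or Control TA array 1 or 2.

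All 3 Dysf_null arrays lay above all 3 Control arrays for 8 of the 11 probe sets in QF, against 4.08% of all, and for 9 in TA, against 6.92% of all. The median difference of the 11 was 1.05 in QF, with -0.01 over all probe sets tested. In TA the medians were 0.59 for the 11 and -0.003 over all. The difference was above 0 for 10 of 11 probe sets in QF, against 48.5% of all, and for 11 of 11 in TA, against 48.8%. These counts and medians also used the contrasts that chose the genes, and nothing is read from them.

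**Figure D2:**
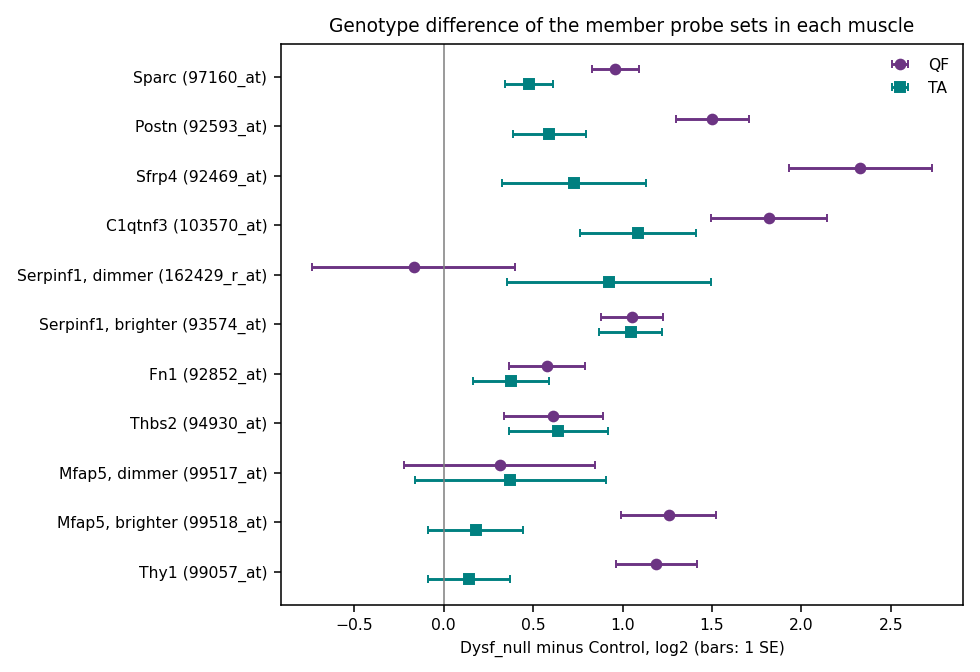
Genotype difference in log2 intensity, Dysf_null minus Control, with its SE, for each of the 11 probe sets in QF and in TA. Sfrp4 has the highest QF value at 2.33, the brighter Serpinf1 probe set has 1.05 in both muscles, and Thy1 and the brighter Mfap5 probe set are near 0 in TA.

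Whether the genotype difference itself depends on the muscle was tested as the interaction, the TA difference minus the QF one. None of the 11 was called (limma, all adjusted p at least 0.955), against 0.0678% of all probe sets. At an unadjusted p under 0.05 there were 5 of 11, against 3.05% of all, and all 5 had the smaller difference in TA. They were Thy1 at -1.05 ± 0.32, the brighter Mfap5 probe set at -1.08 ± 0.38, Postn at -0.91 ± 0.29, Sfrp4 at -1.60 ± 0.57 and Sparc at -0.48 ± 0.19. Among the others, the brighter Serpinf1 probe set had -0.01 ± 0.25 and C1qtnf3 -0.73 ± 0.46. The differences between muscles of the 5 did not pass the adjusted test, and the interaction shares its arrays with the contrasts that chose the genes.

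The muscle comparison, TA minus QF averaged over genotypes, was not used to choose the genes, and it asks whether their levels differ between these muscles. None of the 11 passed, against 1.11% of all probe sets, and 3 had an unadjusted p under 0.05, against 13.0% of all. Sfrp4 had the highest difference, 1.14 ± 0.28 (limma, adjusted p = 0.0861), followed by the brighter Mfap5 probe set at 0.58 ± 0.19 (adjusted p = 0.217) and Postn at 0.42 ± 0.15 (adjusted p = 0.241). Sparc stood at 0.00 ± 0.09, C1qtnf3 at -0.01 ± 0.23 and Fn1 at 0.08 ± 0.15. Sfrp4 passed in some other settings, namely a higher floor, array weights or the replicate number as a block over all arrays, and Sfrp4 and the brighter Mfap5 probe set passed without Control QF array 3. The median of the 11 was 0.25, and 0.01 over all probe sets tested.

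Within Control muscle, all 3 TA arrays lay above all 3 QF arrays for 5 of the 11 probe sets (Sparc, Postn, Sfrp4, the brighter Mfap5 probe set and Thy1), against 8.16% of all. Within Dysf_null muscle this held for 0 of the 11, against 5.71% of all, and for Thy1 every TA array lay below every QF array. The difference of the means, TA minus QF, was 0.34 for Sfrp4 in Dysf_null and 1.94 in Control. It was 0.04 for the brighter Mfap5 probe set in Dysf_null and 1.12 in Control, -0.03 for Postn in Dysf_null and 0.88 in Control, and -0.27 for Thy1 in Dysf_null and 0.78 in Control. Over the 11 probe sets the median was -0.02 in Dysf_null, ranging from -0.38 to 1.10, and 0.24 in Control, ranging from -0.23 to 1.94. The difference between the genotypes in this respect is the interaction given above, which did not pass. Within a genotype, the comparison of muscles reuses arrays of the contrasts that chose the genes, the Control QF arrays among them. The counts and medians within each genotype are therefore a description and support nothing by themselves.

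**Figure D3:**
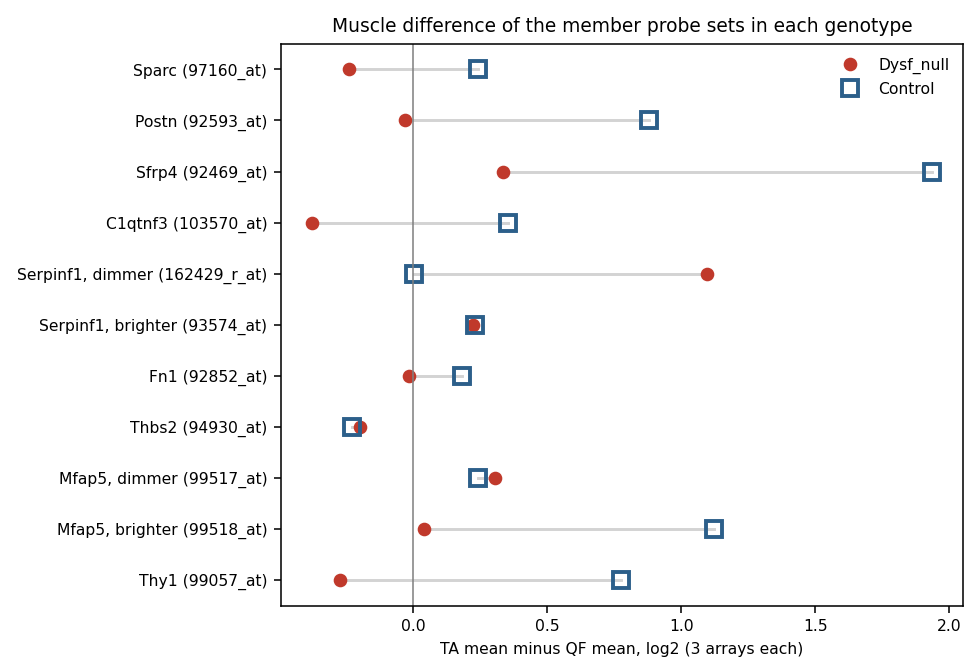
Difference of mean log2 intensity, TA minus QF, for each of the 11 probe sets in Dysf_null (filled) and in Control (open squares). In Control, 10 of 11 lie above 0, and in Dysf_null 5 of 11, with Sfrp4 at 0.34 in Dysf_null and 1.94 in Control.

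The 9 genes, each by its brightest probe set, were compared with each other by their deviations from the group means over the 12 arrays. Of 36 pairs, 18 had an r above 0, with a median r of -0.03 and a range of -0.86 to 0.90. Postn, C1qtnf3, Mfap5 and Sfrp4, singled out after their values were seen, had r = 0.58 to 0.90 over their 6 pairs. Against Fn1 and Thy1 the same 4 genes gave r = -0.86 to -0.45 over 8 pairs. The points share arrays, normalization and replicate numbers, and the QF deviations of Postn, for example, went with the number in both genotypes, at -0.26, -0.05 and 0.30 in Dysf_null and -0.35, -0.02 and 0.37 in Control. With the mean of each same-numbered pair also subtracted, an alternative chosen after seeing the data, the 6 pairs gave r = 0.19 to 0.91, and the 8 pairs with Fn1 or Thy1 gave r = -0.69 to 0.53, 4 of them above 0, so the sign of those 8 did not hold. All these values are a description.

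**Figure D4:**
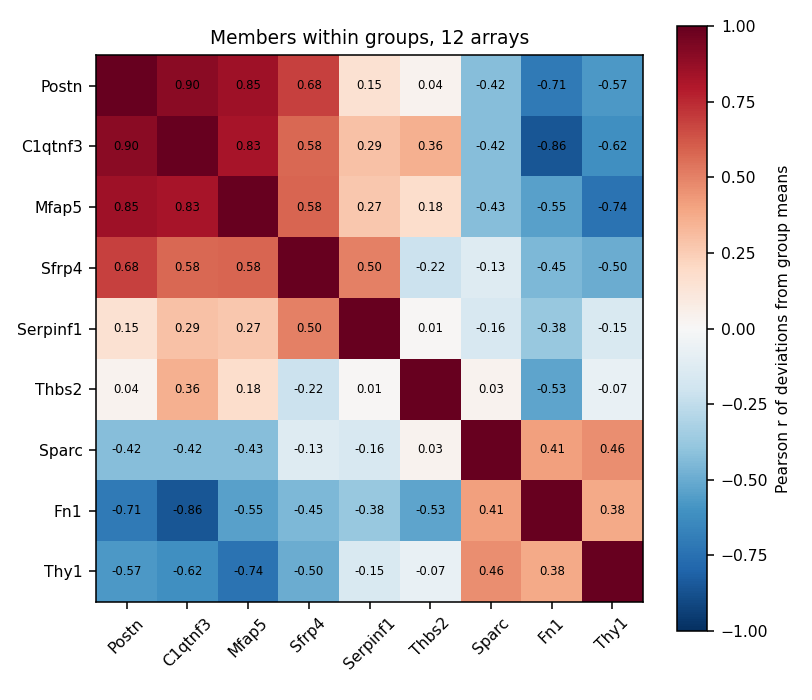
Pearson r, over 12 arrays, between the 9 genes' deviations from their group means (brightest probe set each, colour scale from -1 to 1). Postn, C1qtnf3, Mfap5 and Sfrp4 form a block of positive values up to 0.90, and Fn1 with C1qtnf3 is the lowest pair at -0.86.

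The mean of the 9 genes' standardized values was 0.59, 0.97 and 0.91 in Dysf_null QF, against -1.24, -1.22 and -1.04 in Control QF. In TA it was 0.64, 0.80 and 0.56 in Dysf_null, against -0.28, -0.33 and -0.35 in Control. The Control arrays of the muscles stood apart, and the Dysf_null arrays of the muscles overlapped. This mean reuses the arrays of the genotype contrasts that chose the genes, the Control QF arrays among them. The interaction given above, which tests such a pattern, did not pass for any of the genes. The pattern is therefore a description and supports nothing by itself. Among 5394 other genes, those with the most similar profile over the 12 arrays were Serpinh1, the collagen chaperone (r = 0.954), Anxa5, a calcium-dependent phospholipid-binding annexin (0.946), Kera, the proteoglycan keratocan (0.945), Tpm4, a tropomyosin (0.938), and Kif23, a kinesin of cell division (0.935). Their QF differences lay between 0.90 for Tpm4 and 1.42 for Kera, and their TA differences between 0.58 for Anxa5 and 0.83 for Kera. By deviations from group means the highest were Ivns1abp (0.964), Tgfbi (0.938), Ampd3 (0.925), Tceal9 (0.920) and Ppa2 (0.914). These values describe likeness over 12 arrays that share replicate numbers, and carry no test.

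Among other matricellular genes, 15 of 23 listed were measured, and Fstl1, a SPARC-family glycoprotein, was the 1 that rose in Dysf_null QF, by 1.11 ± 0.20 (limma, adjusted p = 0.028). None of the 15 passed in TA, where 4 had an unadjusted p under 0.05, against 4.82% of all probe sets. Averaged over muscles, Ccn4, a Wnt-induced matricellular protein, rose by 1.39 ± 0.23 (adjusted p = 0.0084) and Fstl1 by 0.73 ± 0.14 (adjusted p = 0.0232). Their median was 0.51 in QF and 0.13 in TA. With the replicate block, 5 rose in QF (Ccn4, Tnxb, Sparcl1, Fstl1 and Smoc2), against 1.68% of all, and 2 in TA (Tnc and Ccn4), against 0.920%. Averaged over muscles 5 rose with the block (Ccn3, Tnc, Ccn4, Fstl1 and Smoc2), against 2.71% of all. The Fstl1 call in QF held in 3 of 12 single omissions, those of Dysf_null QF array 1, Control QF array 3 and Dysf_null TA array 1, and its adjusted p was 0.221 without both QF arrays numbered 2. Averaged over muscles, Ccn4 was called in 12 of 12 omissions and Fstl1 in 4.

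Of the secreted Wnt antagonists and serpins, 10 of 16 listed were measured. Serpinh1 rose in QF by 1.21 ± 0.15 (limma, adjusted p = 0.00452) and, averaged over muscles, by 0.91 ± 0.11 (adjusted p = 0.00105). Sfrp2, which like Sfrp4 binds Wnt ligands, rose on average by 0.89 ± 0.18 (adjusted p = 0.0345) and was called in 2 of 12 single omissions, those of Control QF array 1 and Control TA array 1. Serpinh1 was called in all 12 in both comparisons, but its adjusted p in QF was 0.0573 without both QF arrays numbered 2. None of the 10 passed in TA, where 3 had an unadjusted p under 0.05, against 4.82% of all probe sets. There the replicate block called 2 higher, Sfrp2 and Serpinh1, against 0.920% of all. The list's median was 0.17 in QF and 0.18 in TA.

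In the microfibril, elastic fibre and basement membrane list, 0 of 25 measured genes were called in either muscle by limma, with an unadjusted p under 0.05 for 2 in QF and 3 in TA, and medians of 0.21 in QF and 0.035 in TA. Eln, elastin, had differences of 0.46 ± 0.22 in QF and 0.05 ± 0.22 in TA, and Ltbp4, a latent TGF-beta binding protein, 0.39 ± 0.21 in QF and 0.22 ± 0.21 in TA. With the replicate block Eln rose in QF, and Mfap2, Lox and Eln rose on average. In the list of receptors of fibronectin, thrombospondins, periostin and SPARC, limma called 0 of 20. The unadjusted p was under 0.05 for 0 in QF and 1 in TA, and the medians were 0.11 in QF and 0.005 in TA. The block called Itga7, also in that list and known as the laminin receptor of muscle fibres, lower in TA and on average. The integrin subunit Itgb1 had 0.12 ± 0.18 in QF and -0.02 ± 0.18 in TA, and Itgav 0.33 ± 0.21 in QF and -0.31 ± 0.21 in TA. Of the TGF-beta genes limma called 0 of 16, with an unadjusted p under 0.05 for 1 in QF and 0 in TA and medians of 0.13 in QF and 0.09 in TA, and the block called Tgfb3 higher in QF and on average. Dcn, decorin, had 0.14 ± 0.22 in QF and 0.11 ± 0.22 in TA, and Eng, a TGF-beta co-receptor, 0.13 ± 0.25 in QF and 0.14 ± 0.25 in TA. Between TA and QF limma called 0 genes of these 5 lists. The unadjusted p was under 0.05 for 5 other matricellular genes, 5 Wnt antagonists and serpins, 6 microfibril genes, 3 receptors and 0 TGF-beta genes. Of all probe sets, 13.0% had an unadjusted p under 0.05 in that comparison. For the genotype differences that share was 6.77% in QF and 4.82% in TA. The replicate block called 1.68% of all higher in QF and 2.71% on average, and 64 of 10331 lower in TA and 194 on average. The lists were drawn up with earlier results of these data known.

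**Figure D5:**
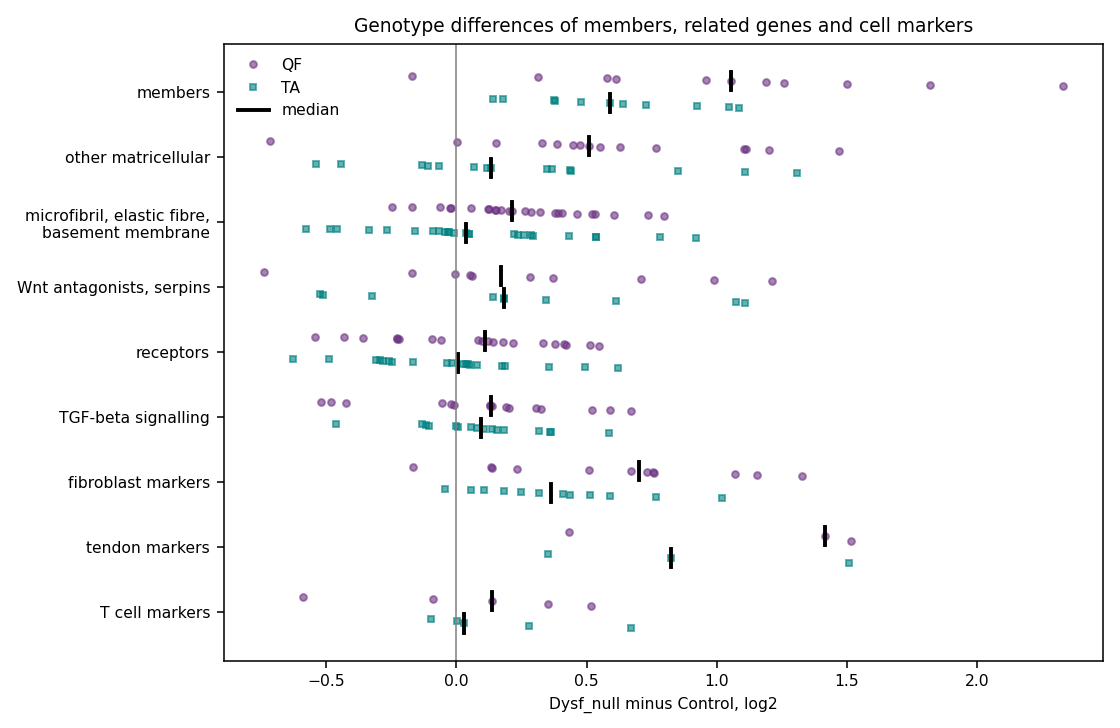
Genotype difference in log2 intensity, Dysf_null minus Control, in QF (circles) and TA (squares), with a bar at each median, for the 11 probe sets, the measured genes of 5 related lists and 3 sets of cell markers. The 11 probe sets have medians of 1.05 in QF and 0.59 in TA, and the other matricellular genes 0.51 and 0.13.

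Beside the matricellular genes, summed marker levels of several cell types lay apart between the genotypes, and those of other cell types overlapped. All 12 fibroblast markers on the array were above the floor on all arrays, and their summed intensity was 30463 to 42226 in Dysf_null QF, against 20282 to 28018 in Control QF. In TA it was 31600 to 45041 in Dysf_null, against 23856 to 31742 in Control, where the ranges overlapped. A sum of intensities weighs the brightest genes most, here Dcn and Col1a1. Gene by gene, 11 of the 12 fibroblast differences were above 0 in each muscle, with medians of 0.70 in QF and 0.36 in TA. Of all probe sets, 48.5% had a difference above 0 in QF and 48.8% in TA. The sizes of the fibroblast differences in QF varied. They were 1.07 ± 0.27 for Col1a1, 0.23 ± 0.16 for Pdgfra and 0.14 ± 0.22 for Dcn, and Vim had -0.17 ± 0.35. None of these markers passed in a single muscle by limma. An unadjusted p under 0.05 was found for 8 in QF, against 6.77% of all probe sets, and for 4 in TA, against 4.82%. Col1a1 rose on average by 0.92 ± 0.19 (limma, adjusted p = 0.0413). Of the 12 single omissions, that call held only in those of Control QF array 3, Dysf_null TA array 1 and Control TA array 2. With the replicate block 5 rose in QF, against 1.68% of all, 3 in TA, against 0.920%, and 7 on average, against 2.71%. Of 6 tendon markers listed, 3 were on the array, Fmod, Kera and Scx, and all 3 were above the floor throughout. They summed to 1951 to 2043 in Dysf_null QF, against 832 to 1178 in Control QF, and to 1699 to 2422 in Dysf_null TA, against 943 to 1140 in Control TA. Scx was not called in either muscle, at 0.43 ± 0.29 in QF and 0.35 ± 0.29 in TA. Fmod, the tendon proteoglycan fibromodulin, rose by 1.51 ± 0.26 in QF (adjusted p = 0.0242) and by 1.51 ± 0.26 in TA (adjusted p = 0.0202), and Kera rose by 1.42 ± 0.27 in QF (adjusted p = 0.0394), a call lost in each of the 12 single omissions. Averaged over muscles, Fmod rose by 1.51 ± 0.19 (limma, adjusted p = 0.00127) and Kera by 1.12 ± 0.19 (adjusted p = 0.0118, lost without Dysf_null TA array 3). The Fmod call was lost in QF without any of the Dysf_null QF arrays or Control QF array 1, and in TA without Dysf_null TA array 2 or 3 or any Control TA array.

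Macrophage markers, 10 of 12 above the floor on all arrays, summed to 4455 to 5107 in Dysf_null QF, against 3407 to 3769 in Control QF. In TA they summed to 4187 to 4748 in Dysf_null, against 3447 to 4181 in Control, so the nearest arrays almost met. Lyz2, the lysozyme of macrophages, rose on average by 0.70 ± 0.13 (limma, adjusted p = 0.0219, called in 6 of 12 single omissions), while Cd68, a lysosomal macrophage protein, fell in TA by 1.27 ± 0.19 (adjusted p = 0.0104, called in 7 of 12). Limma called 0 of the 11 measured in QF, 4 having an unadjusted p under 0.05, against 6.77% of all probe sets. With the replicate block, Lyz2, Ctss and C1qa rose in QF, C1qa rose and Cd68 fell in TA, and on average Lyz2, Ctss and C1qa rose and Cd68 fell. Red cell markers, 5 of 5 above the floor, summed to 21243 to 27524 in Dysf_null QF, against 15901 to 16200 in Control QF. In TA the red cell sums were 22836 to 26224 in Dysf_null, against 11809 to 15759 in Control. The brightest, Hba-a1, weighs most in these sums, with a mean of 14.06 against 9.44 for Bpgm, the next. In TA 4 of the 5 rose (limma): Alas2, the first enzyme of red cell heme synthesis, by 2.00 ± 0.23 (adjusted p = 0.00179), the red cell enzyme Bpgm by 1.15 ± 0.14 (adjusted p = 0.00179), Car2, a carbonic anhydrase, by 1.12 ± 0.21 (adjusted p = 0.0374, called in 4 of 12 single omissions) and the globin Hba-a1 by 0.82 ± 0.14 (adjusted p = 0.0201, called in 7 of 12). In QF Bpgm alone rose, by 0.72 ± 0.14 (adjusted p = 0.0355, called in 1 of 12), and the replicate block called 3 (Alas2, Hba-a1 and Bpgm). The same 4 genes rose on average, by between 0.68 for Hba-a1 and 1.48 for Alas2. Of these, Car2 was called in 2 of 12 omissions. Of all probe sets, limma called 0.300% higher in QF, 0.252% in TA and 0.784% on average. With the replicate block these shares were 1.68%, 0.920% and 2.71%. Muscle fibre markers summed to 112448 to 119798 in Dysf_null QF, against 122424 to 126228 in Control QF, and to 102562 to 113561 in Dysf_null TA, against 112697 to 123323 in Control TA, where the ranges overlapped. Limma called 0 of 9 fibre markers in either muscle, with an unadjusted p under 0.05 for 0 of them and median differences of -0.07 in QF and -0.14 in TA. Without the block, limma called 0 genotype differences in the endothelial, mural, bone, cartilage, fat cell, Schwann cell and regenerating muscle lists. Endothelial and regenerating muscle sums overlapped between the genotypes in both muscles. Mural sums overlapped in TA but were 1976 to 2145 in Dysf_null QF, against 1610 to 1695 in Control QF. Schwann cell sums overlapped in QF but were 1064 to 1411 in Dysf_null TA, against 928 to 1025 in Control TA. The part of all these cell types in the genotype differences was not tested. Platelets store thrombospondin and SPARC, and their markers were dim, with 1 of 4 above the floor on all arrays. They summed to 117 to 140 in Dysf_null QF, against 111 to 163 in Control QF, and to 123 to 153 in Dysf_null TA, against 127 to 148 in Control TA.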

How the data were processed

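The files hold 1 linear intensity per probe set and array as the authors deposited it, 12488 probe sets by 12 arrays. From the values, each array had a 2% trimmed mean of 200.11 to 200.16, so the arrays had been scaled to a common mean. The authors' software is not stated in any source used. Precision is limited by how many arrays there are.

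The 66 control probe sets were left out. Intensities were quantile normalized, floored at the 25th percentile of all values (23.025), and log2 transformed. Probe sets were kept if 3 or more arrays exceeded the floor, which left 10331, and limma 3.58.1 (R 4.3.3) fitted them together (1 mean per group, moderated variances with an intensity trend, 8 residual degrees of freedom). P-values were two-sided and Benjamini-Hochberg adjusted over all 10331. The scripts were tested on simulated data. A fold is 2 to the power of the log2 difference, or of its size where that is negative.

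Gene symbols came from the platform annotation, in which 10833 probe sets have 1 symbol, 396 have several and 1193 are not listed. For a gene list, each gene was read by its brightest probe set. The genes, lists and cell type markers were chosen with earlier results of these data known. Every probe set of the chosen genes is named. Of each list, up to 4 called genes with the smallest p are named per comparison, or the 2 with the highest mean where none was called. The marker lists fall short of that rule. Those without a call are given as sums or only as a count of calls, and calls between muscles are not described for markers. Genes called only with the replicate block were named after their values were seen, as were the uncalled markers Pdgfra, Vim and Scx.

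After the group means were subtracted, same-numbered arrays of a muscle correlated at 0.39, 0.711 and 0.66 in QF and at 0.182, 0.114 and 0.231 in TA over all probe sets tested. The pairing comes from these values, the labels giving only the numbers, and blocked counts stand beside the genotype counts they change for the chosen genes and each list described. Alternatives were another floor or filter, no quantile normalization, no intensity trend, array weights, 1 muscle fitted alone, and arrays left out.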

Additional observations from a re-analysis of the deposited data

How the results depend on the processing

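Of the 11 probe sets, the count called higher in QF was 6, and it was 1 without the intensity trend, 3 with array weights, and 0 with the QF arrays fitted alone. Over all 10331 probe sets, 31 were called higher in QF. That number was 3 without the trend, 14 with array weights and 0 with the QF arrays alone. The count of the 11 was also 0 without both QF arrays numbered 2, with 1 called higher of all 10331. With the other 10 arrays normalized anew, an alternative chosen after seeing the data, it was again 0, with 8 called higher of all 10044. Omitting each array in turn gave 2 to 6 of the 11 in QF, with 10 to 56 called higher of all 10331. In TA the count of the 11 was 1, and it was 0 with no filter on low values, 0 without the intensity trend, 0 with the TA arrays fitted alone, 3 with array weights and 2 with the replicate block, and single omissions gave 0 to 1. Over all 10331 probe sets, 26 were called higher in TA. That number was 17 without the trend, 27 with the TA arrays alone, 118 with array weights and 95 with the replicate block. With no filter it was 13 of 12422, and single omissions gave 9 to 28 of 10331. Averaged over muscles the count of the 11 was 5, against 8 with the replicate block, and single omissions gave 4 to 6. Over all 10331 probe sets, 81 were called higher on average, 280 with the replicate block, and 43 to 100 in single omissions. Of the 11, the replicate block gave 7 in QF, and the block over all arrays gave 7 in QF, 1 in TA and 5 on average. For TA minus QF the count of the 11 was 0, and it was 1 with the floor at the 40th percentile, 1 with array weights and 1 with the replicate block over all arrays, while single omissions gave 0 to 2. Over all 10331 probe sets, 115 were called in either direction. That number was 178 with array weights, 221 with the block over all arrays, and 144 of 8384 with the higher floor. Single omissions gave 58 to 156 of all 10331. The interaction count of the 11 was 0 in every setting run. The cause of these shifts was not tested. No called difference of the 11 probe sets changed sign in any setting. The typical (median) standard error of a comparison of 3 with 3 arrays was 0.323 in log2 units over all probe sets tested. The dimmer probe sets of Mfap5 and Serpinf1 had the widest spread of the 11, with standard errors of 0.53 and 0.57 in each muscle.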
